A study of Mus musculus with 4 samples.

Results

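The promoters of 8 families of developmental transcription factors were taken from a promoter table of H3K9me2 in medial vascular smooth muscle cells (VSMCs). Members were all rows whose symbol is Sox, Pax, Tbx, Gata or Lhx followed by a number, a numbered symbol of the sine oculis family, Fox followed by a letter and a number, or begins with Nkx and a digit, so the Hox clusters are not part of the set. This gave 118 of the 26354 promoters, namely 43 Fox, 18 Sox, 15 Nkx, 13 Tbx, 9 Pax, 8 Lhx, 6 Gata and 6 sine oculis promoters on 20 chromosomes. Chromatin came straight from the media of aortas of male mice of the strain C57Bl/6J, with the adventitia and the endothelium stripped off by hand and no culture step. An H3K9me2 ChIP library and its input library were made in each of 2 experiments, v102 and v134, and no treatment, injury or genetic change separated the groups. Whether each experiment used separate or pooled animals is not given in the sources used here, so the p-values measure the spread between these libraries.

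H3K9me2, the dimethylated form of lysine 9 of histone H3, is deposited mainly by methyltransferases of the EHMT family and is associated with silent chromatin. Sox factors bind DNA through an HMG box, Pax factors through a paired domain, Tbx factors through a T-box, Gata factors through zinc fingers and Fox factors through a forkhead domain, while Lhx, sine oculis and Nkx factors carry homeodomains. They set cell identity in the embryo, and many of their promoters lie in CpG islands, a class often bound by Polycomb complexes where it is silent. In the vessel wall, Gata6, Tbx18, Tbx20, Foxc1, Foxc2, Foxf1, the Foxo factors, Nkx3-2 and Sox9 have been studied in smooth muscle or its precursors, and a list of 12 such members was compared with the remaining 106.

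Promoters from both ends of the range are shown, so that their CG dinucleotides can be compared, and CG-dense sequences are at both ends. Each is the RefSeq sequence from 250 bases before to 50 bases after the start on the gene's strand in GRCm38.p6, with every CG in capitals. The promoters with the least H3K9me2 shown are Foxc1 (chr13:31806396-31806695, plus strand, 32 CG), Foxo1 (chr3:52268087-52268386, plus strand, 31 CG) and Tbx18 (chr9:87731211-87731510, minus strand, 15 CG). Those with the most are Sox30 (chr11:45980060-45980359, plus strand, 28 CG), Lhx3 (chr2:26208200-26208499, minus strand, 13 CG) and Tbx22 (chrX:107667714-107668013, plus strand, 1 CG).
Foxc1: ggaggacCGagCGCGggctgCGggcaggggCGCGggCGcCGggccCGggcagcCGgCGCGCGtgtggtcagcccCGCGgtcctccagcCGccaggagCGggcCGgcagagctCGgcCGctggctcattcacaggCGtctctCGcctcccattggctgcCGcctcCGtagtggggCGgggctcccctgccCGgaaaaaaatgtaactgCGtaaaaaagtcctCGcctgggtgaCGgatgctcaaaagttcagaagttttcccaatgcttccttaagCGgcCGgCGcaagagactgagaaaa
Foxo1: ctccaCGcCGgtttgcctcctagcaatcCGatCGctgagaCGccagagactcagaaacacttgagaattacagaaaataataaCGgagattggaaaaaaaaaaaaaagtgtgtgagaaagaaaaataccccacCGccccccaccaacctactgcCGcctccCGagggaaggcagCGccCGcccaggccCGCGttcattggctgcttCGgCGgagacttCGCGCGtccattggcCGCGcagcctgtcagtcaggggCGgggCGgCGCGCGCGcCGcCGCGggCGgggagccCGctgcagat
Tbx18: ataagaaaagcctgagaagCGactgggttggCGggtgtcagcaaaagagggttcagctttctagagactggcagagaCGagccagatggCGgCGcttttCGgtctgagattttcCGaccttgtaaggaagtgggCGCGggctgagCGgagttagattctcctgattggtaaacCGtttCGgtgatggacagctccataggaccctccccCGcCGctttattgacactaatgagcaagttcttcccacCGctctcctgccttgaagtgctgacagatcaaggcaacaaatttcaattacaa
Sox30: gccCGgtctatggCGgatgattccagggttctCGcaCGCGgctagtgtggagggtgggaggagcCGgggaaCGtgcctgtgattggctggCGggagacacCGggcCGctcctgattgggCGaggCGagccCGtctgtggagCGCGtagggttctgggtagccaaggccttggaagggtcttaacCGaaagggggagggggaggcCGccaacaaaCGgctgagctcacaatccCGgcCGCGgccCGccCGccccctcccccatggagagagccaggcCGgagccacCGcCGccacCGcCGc
Lhx3: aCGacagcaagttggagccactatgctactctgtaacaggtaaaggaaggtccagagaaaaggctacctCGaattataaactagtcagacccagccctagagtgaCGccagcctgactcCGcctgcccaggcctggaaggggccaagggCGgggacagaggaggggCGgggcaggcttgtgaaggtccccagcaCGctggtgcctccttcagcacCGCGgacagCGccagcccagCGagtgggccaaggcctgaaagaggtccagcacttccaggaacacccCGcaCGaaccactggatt
Tbx22: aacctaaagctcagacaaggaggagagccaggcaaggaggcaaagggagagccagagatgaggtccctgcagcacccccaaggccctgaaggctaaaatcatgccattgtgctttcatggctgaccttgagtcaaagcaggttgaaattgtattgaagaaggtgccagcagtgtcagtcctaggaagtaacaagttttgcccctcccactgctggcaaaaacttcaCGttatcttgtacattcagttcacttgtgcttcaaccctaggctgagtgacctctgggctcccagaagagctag

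At least as many CG as in Foxc1 were found in 9.24% of the 27025 RefSeq promoters of this length. Counted in the same way, the share was 10.3% for Foxo1, 14.0% for Sox30, 35.2% for Tbx18, 38.5% for Lhx3 and 94.2% for Tbx22. The motif reads CG on both strands, so each pair was counted once. Over the 84 members with a RefSeq entry the median was 18.5 CG, against 7 over all entries. The Sox30 sequence thus had nearly as many CG as those of Foxc1 and Foxo1 while its H3K9me2 was at the other end of the range.

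The libraries were shallow at single promoters. Over the table, the ChIP libraries held 162233 (v102) and 229605 (v134) reads and the input libraries 619100 and 1084349. The median member had 3 (v102) and 4 (v134) ChIP reads against 20 and 33 in the inputs, and 64 of the 118 members reached 20 reads in each input. Summed over both experiments, members had between 0 and 38 ChIP reads and between 23 and 92 input reads. Mitochondrial promoters, 30 in the table, took 14.3% and 7.53% of the input reads and 0.200% and 0.175% of the ChIP reads, which raises the ratio of every other promoter when reads are scaled by library totals. Promoters of smooth muscle markers ran from Myh11, at percentile 0.736, to Smtn, at 88.7 and above input, with a median of 27.0 over 10 promoters (15.8 in v102 and 33.9 in v134). The median was 55.5 for endothelial markers (8 promoters), with 52.9 in v102 and 58.3 in v134. It was 72.9 for leukocyte markers (7 promoters, 79.2 and 51.0) and 46.5 for fibroblast markers (8 promoters, 55.8 and 36.2). A ChIP library does not measure expression, so these values do not show which cells were present, and the part of other cells in the results was not tested.

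As measured over all 118 members, H3K9me2 at the family promoters was lower than at the median promoter of the table, with a few high exceptions. This direction turned in the 64 members that reached 20 reads in each input, whose median percentile was 52.2 among such promoters, and after removal of the GC trend, which gave 63.9. For each promoter, ChIP and input reads were scaled by their library totals with 1 read added, the log2 ratio was averaged over the 2 experiments, and the mean was ranked among all promoters as a percentile. The median percentile of the 118 members was 42.6 (46.1 in experiment v102 and 41.0 in v134), and the middle 50% of members spanned 25.6 to 57.1. Summed over members, ChIP reads over input reads gave 0.224 in v102 and 0.127 in v134, against 0.305 and 0.229 over all promoters outside the mitochondrial genome, that is 0.733 and 0.556 of the latter. The pooled value of the members was the lower in both experiments.

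ChIP was then compared with input over all 26354 promoters with edgeR (quasi-likelihood test, p-values adjusted by Benjamini-Hochberg over the table), 2 libraries against 2. At an adjusted p under 0.05, 18.6% of all promoters had ChIP above input and 17.0% below, on a scale centred by TMM factors. Among the members, 6 of 118 (5.08%) were above, 16 (13.6%) were below and 96 passed in neither direction. The share above was under the background share in this fit, and the share below was also under it. With the experiment number as a block the background was 15.8% above and 8.30% below, and 4 members (3.39%) were above and 6 (5.08%) below. Scaling by library totals instead of TMM gave 4 members above (3.39%) and 22 below (18.6%), against 16.3% and 21.5% of all promoters, so that the share of members' calls that were above went from 27.3% to 15.4%. The TMM scale put the median promoter of the table at a log2 fold change of -0.35 and library totals put it at -0.50.

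**Figure D1:**
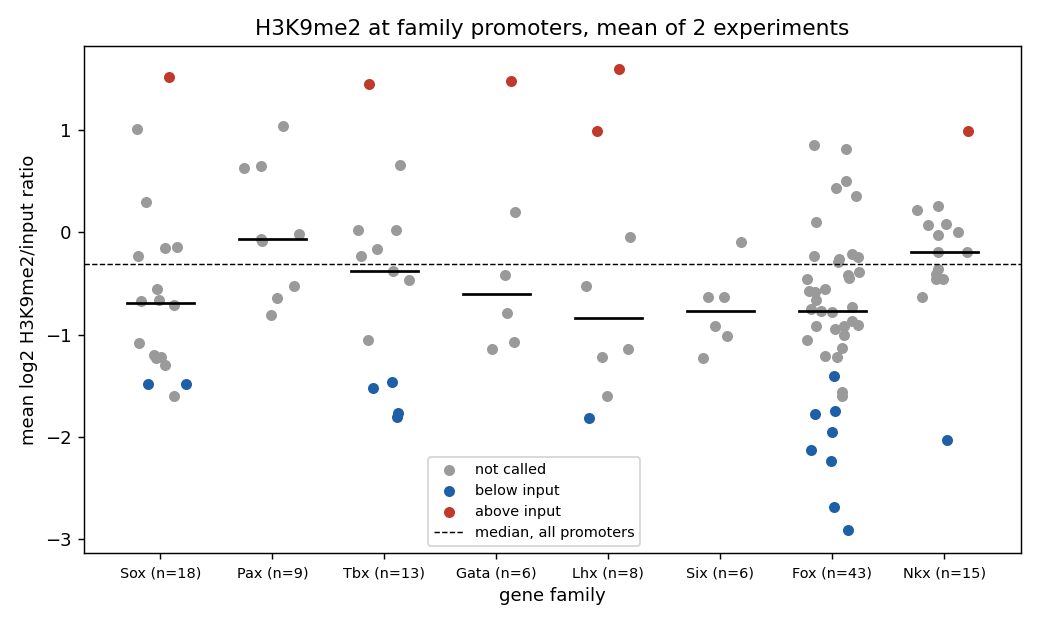
Mean log2 H3K9me2/input ratio of each member promoter (vertical axis, library totals and 1 read added, mean of 2 experiments), by gene family (horizontal axis, with the number of members). Each point is 1 promoter, coloured by the call of the edgeR test, black bars are family medians and the dashed line is the median of all promoters, at -0.31. The 6 promoters above input belong to 5 families, and the 8 called Fox promoters are all below input.

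Lhx3, Sox30, Gata1, Tbx22, Lhx8 and Nkx6-2 were the 6 members above input. Lhx3, a LIM-homeodomain factor of pituitary and motor neuron development, had 17 (v102) and 16 (v134) ChIP reads against 23 and 24 input reads. Its mean log2 ratio of 1.60 ± 0.12 (SD, n = 2) was the highest of the 118 members, at percentile 90.9. Sox30, a factor of male germ cell differentiation, had 16 and 22 ChIP reads against 24 and 33 input reads, a mean log2 ratio of 1.53 ± 0.21 and percentile 89.9. In both genes the ratio was at or above 0.667 in each experiment, over the pooled values of 0.305 and 0.229. The edgeR log2 fold change was 1.72 (SE 0.42, adjusted p = 0.000428) for Lhx3 and 1.65 (SE 0.40, adjusted p = 0.000348) for Sox30.

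Gata1, the master regulator of the erythroid and megakaryocytic lineages, had 13 and 13 ChIP reads against 14 and 29 input reads and lay at percentile 89.3. Tbx22, a T-box factor of palate formation, had 13 and 15 against 14 and 35 and lay at percentile 88.8. Both genes are on the X chromosome, and in both the ratio was higher in v102 (0.929) than in v134 (0.448 for Gata1 and 0.429 for Tbx22). Their log2 fold changes were 1.54 (SE 0.46, adjusted p = 0.0044) and 1.47 (SE 0.44, adjusted p = 0.0045) in edgeR's quasi-likelihood test (Benjamini-Hochberg). Lhx8, which acts in the oocyte and in forebrain cholinergic neurons, had 13 and 15 ChIP reads against 22 and 43 input reads. Nkx6-2, a factor of oligodendrocyte and neural tube patterning, had 13 and 10 against 25 and 26. Their adjusted p-values by edgeR's quasi-likelihood test were 0.0368 and 0.0493, and with the replicate block 0.0594 and 0.0915, so both calls were lost there. The Lhx8 window also overlaps that of AI606473 by annotated starts, so the 2 promoters may share reads.

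Where these high promoters lie was taken from the GENCODE annotation of GRCm38. Lhx3 spans chr2:26200212-26208289 on the minus strand, Sox30 chr11:45980310-46017994 on the plus strand, Gata1 chrX:7959260-7978071 on the minus strand and Tbx22 chrX:107667964-107688978 on the plus strand. Each counted window covers 1 kb on both sides of the start, that is the upstream region and the beginning of the transcribed gene. For Gata1 the annotated start and the RefSeq start are 10161 bases apart, and which start was counted is not given in the sources used here. For Sox30 and Tbx22 they are the same base, and for Lhx3 they are 40 bases apart.

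Further promoters had high ratios that did not pass the test. Sox7, an endothelial factor of the SoxF group, had 9 and 12 ChIP reads against 22 and 24 input reads (log2 fold change 1.10, SE 0.48, adjusted p = 0.0586 in edgeR's quasi-likelihood test (Benjamini-Hochberg)). It was above input when promoters with fewer than 20 reads in an input were left out. Foxk2, a broadly expressed forkhead factor, had 5 and 14 ChIP reads against 15 and 30 input reads, and was the highest Fox promoter at percentile 78.9. Pax3, a factor of neural crest and muscle precursors, had 7 and 8 against 8 and 33 and was the highest Pax promoter at percentile 82.3. Foxk2 and Pax3 were named because they lead their families, and Sox7 after its values were seen.

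At the other end, 2 members had no ChIP read in either experiment. Foxc1, a forkhead factor of vascular and eye development that spans chr13:31806633-31812476 on the plus strand, had 0 and 0 ChIP reads against 26 and 37 input reads. Foxo1, an insulin-regulated forkhead factor that spans chr3:52268336-52353221 on the plus strand, had 0 and 0 against 21 and 33. With a floor of 3 ChIP reads over both experiments, the summed ratio was at least 4.83-fold lower for Foxc1 and at least 4.14-fold lower for Foxo1 than the 0.230 pooled over all promoters. They lay at percentiles 0.378 and 1.04, with adjusted p-values of 0.000282 and 0.000919 by edgeR's quasi-likelihood test. No ChIP read was found at 523 of all promoters (1.98%), and 2 of 118 members is 1.69%. The Foxo1 window overlaps that of Gm20402.

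Foxp1 and Foxp2, forkhead factors known for roles in lung, heart and neural development, each had 1 ChIP read in all. Foxp1 had 0 and 1 ChIP reads against 20 and 37 input reads, a summed ratio of 0.0175 (95% Wilson interval 0.00306 to 0.101). Foxp2 had 1 and 0 against 20 and 32, a ratio of 0.0192 (0.00335 to 0.110). Nkx6-1, a factor of pancreatic beta cells and motor neurons, had 1 and 0 against 19 and 29, a ratio of 0.0208 (0.00362 to 0.120). All 3 intervals end below the pooled 0.230, and edgeR's quasi-likelihood test gave Benjamini-Hochberg adjusted p-values of 0.00563, 0.00935 and 0.0137. Without molecular identifiers, reads cannot be counted as independent molecules, so intervals and floors cover counting error only.

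Foxc1, Foxo1, Foxp1, Foxp2, Nkx6-1 and Tbx18 were also below input with the replicate block. The other 10 were below without it and not with it, namely Foxs1, Foxa2, Foxn4, Foxc2, Lhx2, Tbx6, Tbx3, Tbx2, Sox15 and Sox12, whose blocked adjusted p-values lay between 0.0511 (Tbx6) and 0.103 (Lhx2). They had between 1 and 5 summed ChIP reads. Of the 25 members with at most 3 summed ChIP reads, 14 passed the test and 11 did not, so at this depth a low count alone was often not separable from input. DESeq2 gave no defined adjusted p for 101 of the 118 members, called 4 above (Lhx3, Sox30, Gata1 and Tbx22) and 0 below, and had 7 below at an unadjusted p under 0.05. Sox30 and Foxc1 kept their calls in every edgeR alternative, including those without each library in turn.

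**Figure D2:**
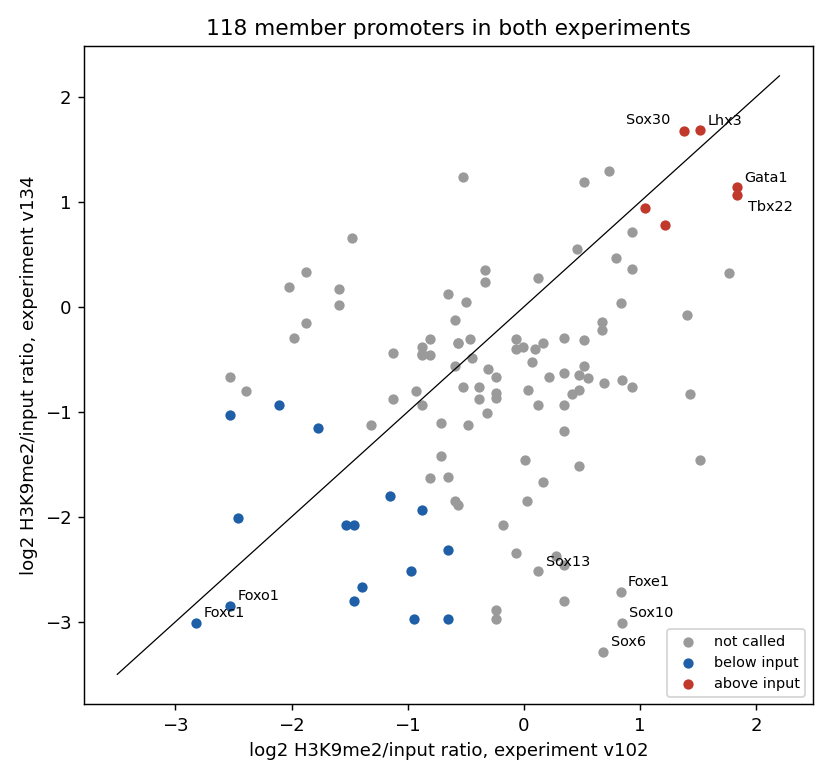
Log2 H3K9me2/input ratio of the 118 member promoters in experiment v102 (horizontal axis) and v134 (vertical axis), with the diagonal of equal values. Points are coloured by the call of the edgeR test. Lhx3, Sox30, Gata1 and Tbx22 sit high in both experiments and Foxc1 and Foxo1 low in both, while Sox6, Sox10, Foxe1 and Sox13 have 5 to 7 ChIP reads in v102 and 0 in v134.

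The order of the members differed between the experiments. Across the 118 members, which are not independent replicates and have few reads each, the Spearman correlation of the log2 ratios was 0.275, compared with 0.689 across all promoters. Of the members, 7 (5.93%) were in the top quartile of both experiments, against 17.7% of all promoters, and the 6 above input were among them. The bottom quartile of both held 8 members (6.78%, against 12.7%), namely Foxc1, Foxo1, Foxp1, Foxp2, Nkx6-1, Sox12, Tbx18 and Tbx6. Sox6, Sox10, Foxe1 and Sox13 had 7, 7, 6 and 5 ChIP reads in v102 and 0 in v134, a pattern at 3.39% of members and 0.622% of all promoters. The opposite pattern, at least 5 in v134 and 0 in v102, was at 0 members and 1.20% of all promoters. These comparisons of the experiments were chosen after the values were seen.

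The 12 members known in vascular smooth muscle included 4 below input and 0 above. The 4 were Foxc1, Foxo1, Tbx18 and Foxc2, 33.3% of the list, compared with 12 of the 106 other members (11.3%) and 17.0% of all promoters. At an unadjusted p under 0.05 the list had the same counts, 0 above and 4 below, and DESeq2 defined no adjusted p for any of its 12 promoters. With the replicate block 3 of the 12 (25%) were below, against 3 of the 106 others (2.83%) and 8.30% of all promoters. CpG-rich windows (GC content over 50%, observed to expected CpG over 0.6) made up 83.3% of the list. They made up 55.2% of the other placed members and 28.5% of all placed promoters. Among all CpG-rich promoters 32.9% were below input, and 16.7% with the block. The part of base composition in the list's share was not tested, and this comparison was chosen after the values were seen. The median percentile of the list was 37.5, compared with 43.3 for the other members. With 5 reads added in place of 1 the list was at 46.8 and the other members at 45.8, so this order turned. With 1 read added, the list was at 21.5 in experiment v102 and 42.2 in v134, while the other members were at 46.1 and 41.0. By this median the list thus lay under the other members in v102 and not in v134. The ratio of summed reads was 0.114 (0.0888 to 0.147) over the list, compared with 0.167 (0.156 to 0.179) over the other members. In v102 it was 0.139 (0.0969 to 0.200) and 0.233 (0.211 to 0.258), and in v134 0.0975 (0.0690 to 0.138) and 0.130 (0.118 to 0.143). By this measure the list was the lower in both experiments, with overlapping intervals in v134. The intervals cover counting error only and not the spread between promoters. Of the list 0 promoters were in the top quartile of all promoters and 4 in the bottom quartile, against 11 and 24 of the 106 other members.

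Tbx18, which marks mural cell progenitors, had 1 and 1 ChIP reads against 21 and 39 input reads, a ratio of 0.0333 (0.00897 to 0.124), and lay at percentile 9.95. Foxc2, a forkhead factor of lymphatic and arterial development, had 1 and 1 against 13 and 35, a ratio of 0.0417 (0.0112 to 0.155), at percentile 18.5. Tbx18 was below input with and without the block in edgeR's test (adjusted p = 0.0475 and 0.0139), and Foxc2 only without it (adjusted p = 0.0999 and 0.0436). The remaining 8 promoters of the list did not pass the test in either direction.

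Gata6, a zinc finger factor that maintains the contractile state of VSMCs, had 1 and 5 ChIP reads against 22 and 27 input reads, at percentile 13.4 in v102 and 60.2 in v134. Sox9, a chondrogenic factor, had 1 and 4 against 22 and 20, and Foxo4, which binds myocardin, had 0 and 3 against 13 and 14. In these 3 promoters the ratio was lower in v102 than in v134. Tbx20, a cardiac and endothelial T-box factor, had 7 and 5 ChIP reads against 21 and 48 input reads, at percentile 66.2 in v102 and 39.0 in v134. Foxf1a, the older symbol of Foxf1, a forkhead factor of visceral mesenchyme, had 6 and 4 against 14 and 22. In both the ratio was higher in v102. Foxo3 had 3 and 2 ChIP reads against 22 and 20, and Nkx3-2, a factor of spleen and skeletal development, had 4 and 6 against 23 and 25, with percentiles of 42.1 and 59.2. The adjusted p-values of these 7 lay between 0.366 (Gata6) and 0.976 (Nkx3-2) in edgeR's quasi-likelihood test (Benjamini-Hochberg).

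**Figure D3:**
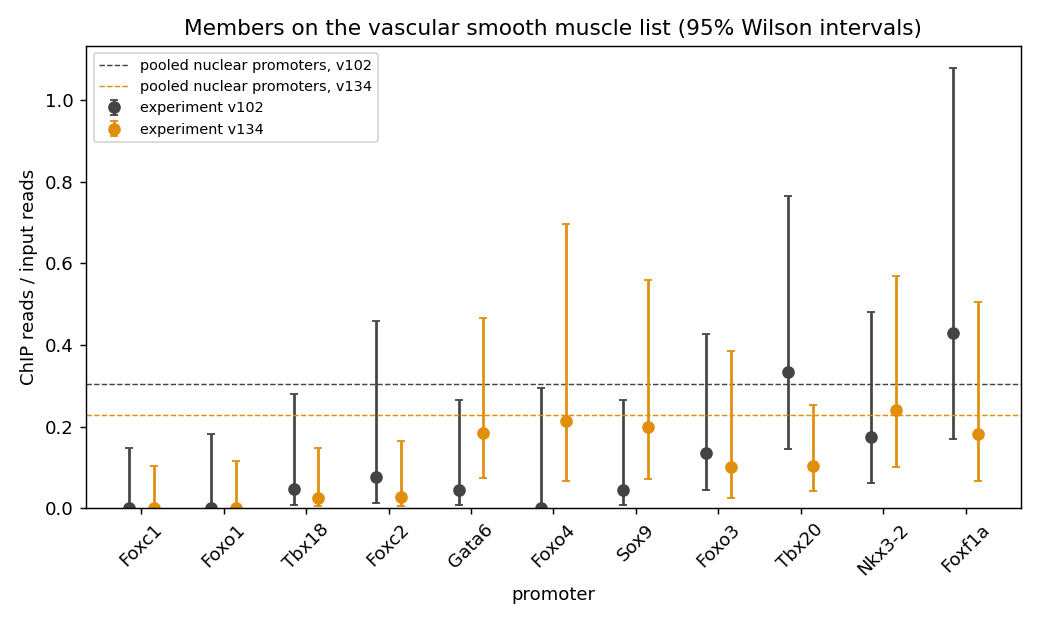
Ratio of ChIP to input reads (vertical axis, not scaled for library size) at 11 promoters of the vascular smooth muscle list (horizontal axis, ordered by mean log2 ratio), in experiment v102 (grey) and v134 (orange). Bars are 95% Wilson intervals for counting error and dashed lines are the pooled ratios of all promoters outside the mitochondrial genome, 0.305 and 0.229. Foxc1, Foxo1 and Tbx18 lie with their whole intervals under the line in both experiments, while the intervals of Foxo3, Tbx20, Nkx3-2 and Foxf1a reach over it in both.

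By the mean of both experiments, Pax and Nkx promoters had the highest family medians and Lhx, sine oculis and Fox the lowest, and the ranges overlapped throughout. The median percentile was 57.3 for Pax, 53.6 for Nkx, 48.2 for Tbx, 41.7 for Gata, 38.9 for Sox, 36.6 for Fox, 36.5 for the sine oculis family and 34.6 for Lhx. Fox, sine oculis and Lhx differed by less than the 2 experiments differed within Lhx (38.7 and 45.4), and the family medians rest on between 6 and 43 promoters. Within Pax the experiments gave 68.3 and 42.0, within Gata 33.5 and 63.4, within Tbx 59.4 and 38.8 and within Sox 55.6 and 35.5. The order of the families was thus not the same in both. Lhx was the lowest in neither experiment, since Gata was lower in v102 and Sox in v134. With 5 reads added in place of 1, Lhx was at 45.6, and its 4 promoters with 20 reads in each input had a median of 77.3. The families also differed in their share of CpG-rich windows. It was 74.4% for Fox, 72.2% for Sox, 50% for Gata and 50% for the sine oculis family. It was 44.4% for Pax, 42.9% for Nkx, 37.5% for Lhx and 30.8% for Tbx. The part of base composition in the family order was not tested.

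In the Fox family, 8 of 43 promoters (18.6%) were below input and 0 were above, against 17.0% and 18.6% of all promoters. With the replicate block 4 (9.30%) were below, against 8.30%. At an unadjusted p under 0.05 edgeR gave 2 above and 11 below, and DESeq2 gave 0 in either direction with 38 undefined. The FoxP group lay at percentiles 3.98 (Foxp1), 4.98 (Foxp2), 28.1 (Foxp3, the factor of regulatory T cells) and 23.5 (Foxp4), all under the median promoter. In the FoxO group Foxo1 was at 1.04, Foxo6 at 13.8, Foxo4 at 36.6 and Foxo3 at 42.1. The pioneer factors Foxa1, Foxa2 and Foxa3 lay at 36.3, 10.3 and 42.3, and Foxa2, with 0 and 2 ChIP reads against 21 and 28, was the only one of the 3 below input. Foxr1 and Foxr2 of the FoxR group lay at 61.5 and 68.0.

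In the Sox family, Sox30 was above input (5.56% of 18, against 18.6% of all promoters), and Sox12 and Sox15 were below (11.1%, against 17.0%) without the block and not with it. The SoxF factors of endothelium were spread over the range, with Sox7 at percentile 81.8, Sox17 at 54.6 and Sox18 at 13.7, the lowest Sox promoter (3 and 0 ChIP reads against 17 and 36). The SoxC factors Sox4, Sox11 and Sox12 lay at 23.2, 22.9 and 16.6, and the SoxE factors Sox8, Sox9 and Sox10 at 39.5, 38.4 and 27.3. Sox1, Sox2, Sox14 and Sox21, of the neural SoxB group, lay at 54.9, 42.9, 66.7 and 52.5. Sox3 was not analysed here.

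In the Tbx family, 4 of 13 promoters (30.8%) were below input and 1 (7.69%) above, against 17.0% and 18.6% of all promoters, and with the replicate block 1 (7.69%) was below, against 8.30%. Those below were Tbx18, Tbx6, Tbx3 and Tbx2. Tbx2 and Tbx3, related repressors of limb and heart development, had 1 and 1 ChIP reads against 25 and 20, and 1 and 4 against 32 and 44. Their windows overlap those of 2610027K06Rik and Gm2301 by annotated starts, so part of the reads may be shared. The limb and heart factors Tbx4 and Tbx5 lay at 52.5 and 59.6, and Tbx1, a pharyngeal arch factor, at 59.7 with 11 and 2 ChIP reads.

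In the Gata family, the 3 blood factors Gata1, Gata2 and Gata3 lay at percentiles 89.3, 25.6 and 64.2, and the heart and endoderm factors Gata4, Gata5 and Gata6 at 47.2, 27.8 and 36.1. Gata2, also an endothelial factor, was the lowest of the family, with 2 and 1 ChIP reads against 17 and 28 input reads (ratio 0.0667, 95% Wilson interval 0.022 to 0.202). In the Lhx family, Lhx3 and Lhx8 were above input and Lhx2, a forebrain and eye factor with 3 and 0 ChIP reads against 23 and 36, was below and the lowest of the family. In the Nkx family, Nkx6-2 and Nkx6-1 were at opposite ends, at 81.4 and 6.21, and the other 13 lay between 40.6 and 65.7. The cardiac factor Nkx2-5 was at 53.6.

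No Pax or sine oculis promoter passed edgeR's test in either direction, and at an unadjusted p under 0.05 there were 0 Pax promoters and 1 sine oculis promoter, which was below. DESeq2 called 0 in both families, with 6 of the 9 Pax and all 6 sine oculis promoters undefined. The lowest Pax promoter was Pax2, a kidney and midbrain factor, at 35.5 with 2 and 2 ChIP reads against 15 and 30. The sine oculis family ran from Six2, a factor of nephron progenitors with 2 and 1 ChIP reads against 16 and 34, at 22.9, to Six4 at 56.6 with 4 and 4 against 16 and 29.

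Some members neighbour each other in the genome, and neighbours did not always have like values. Foxf1a and Foxc2, whose starts are 31.8 kb apart on chromosome 8, had summed ratios of 0.278 (0.140 to 0.552) and 0.0417 (0.0112 to 0.155). Tbx5 and Tbx3, 162 kb apart on chromosome 5, had 0.179 and 0.0658, and Tbx4 and Tbx2, 53.9 kb apart on chromosome 11, had 0.176 and 0.0444. In each pair 1 promoter was below input and the other did not pass the test, and the difference within a pair was not tested. On chromosome 13, Foxq1, Foxf2 and Foxc1 had ratios of 0.111, 0.0588 and 0, with 1 ChIP read in v134 over all 3 promoters. Nkx2-1, Nkx2-9 and Pax9 on chromosome 12 had 0.172, 0.246 and 0.193, and Six6 and Six4 had 0.122 and 0.178 on the same chromosome. Nkx2-4, Nkx2-2 and Pax1 on chromosome 2 had 0.128, 0.133 and 0.324, and Six3 and Six2 on chromosome 17 had 0.0851 and 0.0600. Foxl1 was not analysed here.

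By lineage, counts are again to be read against 18.6% of all promoters above input and 17.0% below. The 6 germline, ciliary and thymic factors had the highest median, 64.8, with Sox30 and Lhx8 above input and Foxr2 and Foxr1 next. These were 2 of 6 (33.3%) above and 0 below (0 below also at an unadjusted p under 0.05). With the replicate block 1 (16.7%) was above, against 15.8% of all promoters. The ciliary and thymic members were the lowest of this list, which reached down to percentile 32.6. Of 17 neural factors 2 (11.8%) were above (Lhx3 and Nkx6-2) and 2 (11.8%) below (Lhx2 and Nkx6-1), both shares under those of all promoters, with a median of 40.7, and Pax6 was at 74.8. Of 6 blood factors Gata1 was above and 0 were below (0 also at an unadjusted p under 0.05), with a median of 34.3 that was 59.0 in v102 and 29.4 in v134. Of 6 endoderm factors Foxa2 was below and 0 were above (0 also at an unadjusted p under 0.05), with a median of 48.4, and Pax8, Pax4 and Sox17 led at 58.6, 57.3 and 54.6. DESeq2 defined no adjusted p for 5 of the 6 blood and 3 of the 6 endoderm factors, and called none of the rest other than Gata1. In these lists Lhx8, Nkx6-2, Lhx2 and Foxa2 lost their calls with the replicate block.

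The cofactors of these families had a lower median than the factors. Of 16 cofactor promoters, 7 (43.8%) were below input and 0 above, against 17.0% and 18.6% of all promoters, with a median percentile of 17.1 (14.0 in v102 and 27.8 in v134). At an unadjusted p under 0.05 there were 0 above and 10 below, DESeq2 defined no adjusted p for any of the 16, and 4 of 16 were below with the replicate block, against 8.30% of all promoters. The 4 were Tle4 (0 and 0 ChIP reads against 25 and 32), Tle3, Crebbp and Zfpm1 (0 and 0 against 21 and 33). Tle proteins are Groucho corepressors, Crebbp is a histone acetyltransferase and Zfpm1 is the Gata partner FOG1. The highest were Dach2, Eya2, Eya1 and Ctnnb1, at percentiles 75.4, 54.2, 50.2 and 36.0. Of 49 other developmental factors whose symbols the rule does not match, 3 (6.12%) were above and 12 (24.5%) below, with a median of 33.7. With the replicate block 2 were above and 3 (6.12%) below, the latter under the 8.30% of all promoters. Mga (9 and 25 ChIP reads against 21 and 37), Tcf21 (14 and 16 against 21 and 41) and Otx2 (13 and 17 against 18 and 54) were those above, of which Otx2 lost its call with the block (adjusted p = 0.0524 in edgeR), and Isl1 (9 and 8 against 12 and 24) was as high without passing the test. The Hox promoters, 39 in number, had a median at percentile 35.04 with 13 below (33.3%, against 17.0%) and 0 above (0 also at an unadjusted p under 0.05 and by DESeq2, with 37 undefined), and 6 below (15.4%, against 8.30%) with the block, and 323 Zfp promoters of zinc finger genes had 52.9.

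Base composition went with H3K9me2 over the table, and the members are rich in CpG. Windows with a GC content over 50% and a ratio of observed to expected CpG over 0.6 made up 58.1% of the 117 members with a position, against 28.5% of all promoters. Among CpG-rich promoters the median percentile was 36.4 for the 68 members and 27.4 for all, and 11 members (16.2%) and 32.9% of all were below input. Among CpG-poor promoters it was 52.5 for the 49 members and 58.2 for all, and 4 members (8.16%) and 22.9% of all were above input. The members of both classes thus lay closer to the middle than all promoters of the class. Across promoters, which share the libraries and their base composition bias, the Spearman correlation of the log2 ratio with GC content was -0.43 for members and -0.54 for all. This split by CpG class was chosen after the values were seen.

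Removing the trend with GC content moved the members from below to above the median promoter. Their median percentile went from 42.6 to 63.9, that of the vascular smooth muscle list from 37.5 to 57.6 and that of the other members from 43.3 to 63.9. Foxc1 and Foxo1 stayed at the low end, at 4.16 and 8.37, as did Tbx18 at 11.7, while Foxf1a went from 70.0 to 96.8 and Sox30 from 89.9 to 99.6. The cofactors stayed low, at a median of 22.8. The part of library preparation in the GC trend was not tested.

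**Figure D4:**
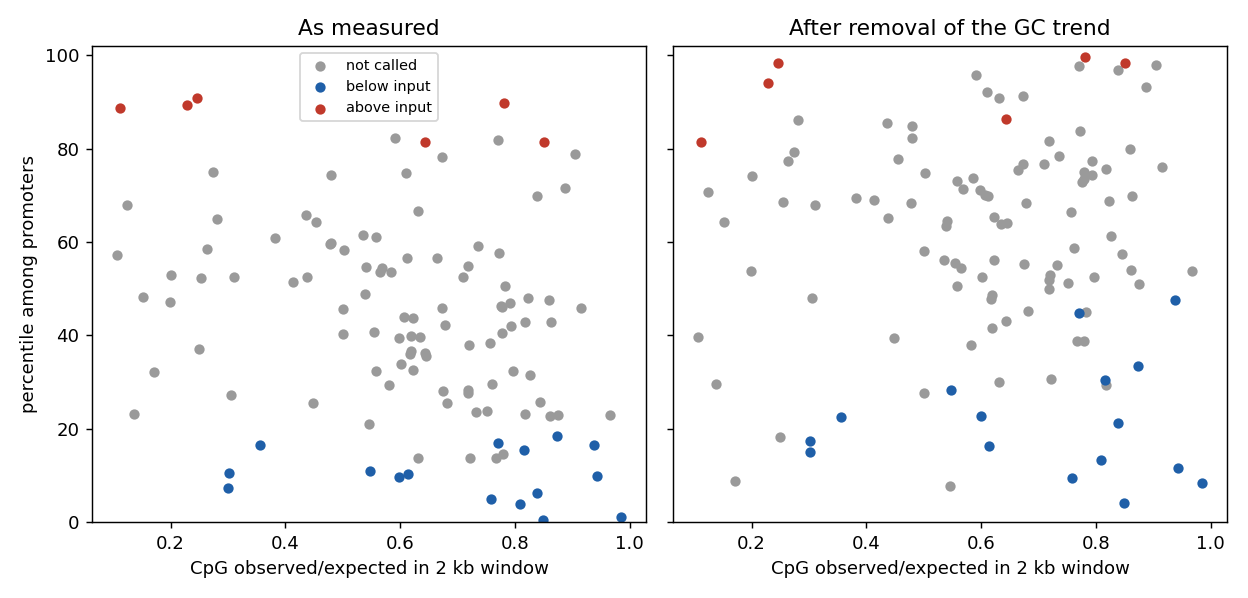
Percentile of each of the 117 placed members among all promoters (vertical axis) against the ratio of observed to expected CpG in the window of 1 kb on both sides of the start (horizontal axis), as measured (left) and with the GC trend removed (right). Points are coloured by the call of the edgeR test. On the left most CpG-rich members lie in the lower part, and on the right the cloud moves upward while Foxc1 and Foxo1 remain at 4.16 and 8.37.

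Of the 5 members on the X chromosome, Gata1 and Tbx22 were above input, Foxr2 lay at percentile 68.0, Foxo4 at 36.6 and Foxp3 at 28.1. Their median was 68.0, against 59.1 over 780 X promoters, of which 15.1% were above input. Of these 5 members 0 reached 20 reads in each input. Their median summed input was 36 reads, against 53.5 for members on autosomes. Without the X chromosome, 4 of 112 members (3.57%) were above input and 16 (14.3%) below, against 17.3% and 18.0% of autosomal promoters. The windows of 27 members overlap that of another gene, and the 90 placed members without such an overlap had a median percentile of 43.8, with 5 above and 13 below. The X chromosome and overlap comparisons were also chosen after the values were seen.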

How the data were processed

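H3K9me2 ChIP and input reads from 2 experiments were analysed at the promoters of the table. The authors used Cutadapt for trimming of paired-end reads, Bowtie2 for alignment to GRCm38 and SeqMonk for counting in windows of 1 kb on both sides of a start site. The submitters' processing notes name Trim Galore 0.4.2, cutadapt 1.9.1 and Bowtie2 2.2.7. The deposited values are raw counts per promoter and library, their sums, and the ratio of the sums, which is not scaled for library size and equalled the recomputed ratio at all 26354 promoters (tolerance 1e-06). The lowest summed input is 21 reads. Neither the annotation release nor how duplicates were handled is given in the sources used here.

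From the counts, log2 ratios (1 read added, scaled by library totals over the table) and percentiles were computed. ChIP was compared with input by edgeR 4.0.16 in R 4.3.3 (quasi-likelihood test, TMM, Benjamini-Hochberg adjustment over the table at 0.05), with DESeq2 1.42.0 as an alternative. The edgeR test was also run on simulated counts in which few promoters changed. That run does not check the test or its scale where many promoters differ, as in these data. Standard errors are the log2 fold change divided by the square root of F. Positions, GC content and overlapping windows came from GENCODE vM21 for 91.4% of symbols and 117 of 118 members. Nkx2-2as, an antisense RNA kept by the rule, had none. The GC trend was removed with lowess (fraction 0.3). RefSeq and GENCODE starts were within 100 bases for 53 of 84 members, and the start that was counted may differ from either. Wilson intervals are at 95%, and the floor is 3 reads.

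The libraries are paired by experiment number, since the study states that each ChIP has its own input. The deviations of paired libraries had a correlation of 0.103 over all promoters and -0.168 over the members. The chi-square per degree of freedom was 1.52 between the ChIP libraries and 1.28 between the inputs. Since the handling of duplicates is not known, these values cannot tell whether a pair was a repeat of 1 library. The named promoters are the vascular list, the highest and lowest of each family, those above input, neighbours in clusters and at most 4 per further list, and any further promoter was named after its values were seen. A few single promoters are not reported here, though group values include them. The members and lists were chosen with earlier results of these data known. Python 3.11.15 with pandas 2.3.3, statsmodels 0.14.6 and matplotlib 3.10.9 was used.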

Additional observations from a re-analysis of the deposited data

How the results depend on the processing

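Depth limits single promoters, since members had a median of 7 summed ChIP reads. The replicate block left 2187 promoters below input over the table (4173 above) and 6 of the members, all 6 among the 16, and 4 above, so that 12 of the 22 calls among the members were lost and none was added. A minimum of 20 reads per input left 2446 above and 1678 below, with 6 of 64 members below and 5 above. DESeq2 gave 3058 above and 27 below over the table and 0 members below. Leaving out each library in turn gave 3037 to 5028 promoters above and 495 to 3995 below, with 1 to 5 members above and 1 to 22 below, the fewest without an input library (2 above and 1 below without input v102, 1 and 2 without input v134), 7 below without ChIP v134 and 22 without ChIP v102. Such fits leave 1 library in an arm, which is assumed to vary like the pair. Adding 5 reads instead of 1 moved the median percentile of Fox to 39.9, Lhx to 45.6 and the sine oculis family to 42.6. It put the vascular smooth muscle list at 46.8 and the other members at 45.8. Under the minimum of 20 reads per input the members were at 52.2, those outside the vascular smooth muscle list at 54.3, Fox at 38.9, Lhx (4 promoters) at 77.3 and Nkx (8) at 64.5. Tbx (9 promoters) was at 34.25 under this minimum. Removal of the GC trend gave 63.9 for the members and also for those outside the list, 57.6 for the list, 55.4 for Fox, 52.4 for Lhx, 75.5 for Nkx, 54.7 for the sine oculis family, 64.2 for Sox and 64.3 for Tbx. Using 1 experiment at a time gave 37.0 to 38.4 for Fox, 33.5 to 63.4 for Gata, 38.7 to 45.4 for Lhx, 51.0 to 52.7 for Nkx, 39.0 to 43.2 for sine oculis, 35.5 to 55.6 for Sox and 21.5 to 42.2 for the list. The reversals of sign were all at promoters that passed no test. The log2 fold changes of Nkx3-2 and Tbx20 went to 0.344 and 0.0913 under the minimum of 20 reads per input, and that of Nkx3-2 to 0.000858 without mitochondrial promoters. Leaving out each library in turn gave -0.022 to 0.936 for Foxf1a, -0.457 to 0.323 for Nkx3-2 and -0.620 to 0.240 for Tbx20. The cause of these shifts was not tested.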
